A study of Mus musculus with 8 samples.

Results

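Late cornified envelope (Lce) genes encode small cysteine-rich proteins of the outermost skin, and 10 of them (Lce1a1, Lce1a2, Lce1b, Lce1c, Lce1f, Lce1g, Lce1h, Lce1m, Lce3a and Lce3c) were measured in mouse skin engineered to overexpress Musashi1 (Msi1), an RNA-binding protein known as a regulator of translation in stem cells. The 10 genes were chosen by name, through the RefSeq accession attached to each array probe, from 16 Lce genes with a probe and from 20284 genes with a named probe in all. The study's title gives the question, which genes differ in mouse skin when Musashi1 is overexpressed. Total RNA of whole skin was hybridised to 8 one-colour arrays. The 4 Control samples are labelled as control mouse skin and the 4 DTG samples as DTG mouse skin. The labels do not spell out DTG, all 8 samples are labelled male, and the strain, the age, the alleles and the promoter behind the overexpression are not given in the sources used here.

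Keratinocytes that leave the basal layer of the epidermis differentiate through the spinous and granular layers and end as dead, flattened corneocytes. During that last step transglutaminases crosslink involucrin, loricrin, small proline-rich (Sprr) proteins and, late in the process, Lce proteins beneath the plasma membrane, and the product, the cornified envelope, is a main part of the skin barrier. The Lce genes lie side by side within the epidermal differentiation complex, together with the genes of loricrin, involucrin, filaggrin and the Sprr proteins. Genes of the Lce1 group are known as genes of normal epidermis, whereas Lce3 genes are known to be raised where the barrier is disrupted or the epidermis is inflamed, as in psoriasis.

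Levels are given as log2 of the signal over the 75th percentile of the same array, so that 0 marks that percentile and a step of 1 is 2-fold. Each probe binds its target with its own efficiency, so levels of different genes were not ranked against each other. All 10 members were well above background on all 4 Control and all 4 DTG arrays where they were measured, and none was saturated. The comparison was a limma fit over all 17766 genes that passed the filter on dim probes, and a gene was called at a Benjamini-Hochberg adjusted p under 0.05.

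The members did not move together. Lce3c rose in DTG skin, Lce1m fell, and the other 8 members were not called. Against this count, 32.4% of all genes tested were called in either direction, 11.1% were called higher in DTG and 21.3% lower. That balance depends on the scaling: 1978 genes were called higher and 3776 lower here, 2235 and 1594 with no scaling, and 5422 and 412 on a scale set by spike-in RNA. For Lce3c the lowest DTG array exceeded the highest Control array, as for 11.4% of all genes tested, and for Lce1m the highest DTG array was below the lowest Control array, as for 23.2% of them. The share of members called, 1 higher and 1 lower of 10, is thus not above that among all genes. The median log2 fold change of the 10 members was -0.09, beside -0.15 over all genes tested. In whole skin, fewer cells of a type and less RNA per cell cannot be told apart.

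**Figure D1:**
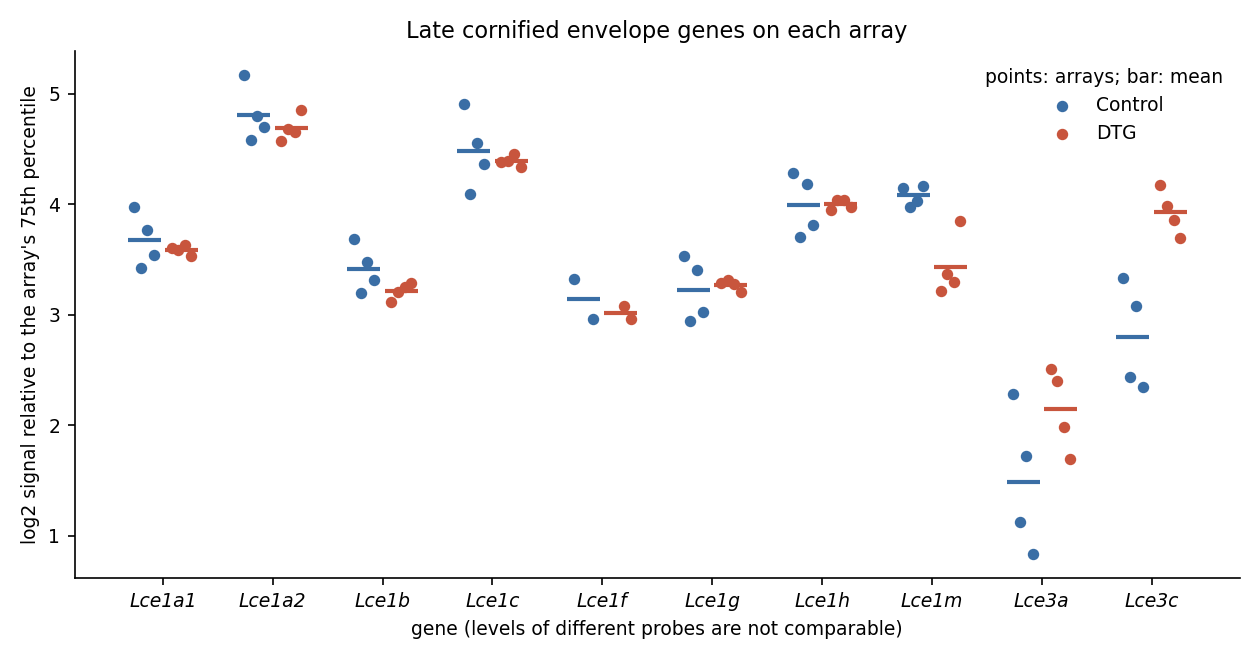
Level of each member on each array, in log2 units above the 75th percentile of that array; points are arrays, bars are group means, blue is Control and red is DTG. The 4 DTG points of Lce3c, from 3.69 to 4.17, lie above its 4 Control points, the 4 DTG points of Lce1m, from 3.22 to 3.84, lie below its Control points, and the groups of the other members overlap; Lce1f has 2 points a group.

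The upstream sequences of 4 members are shown because they stand for the patterns seen: Lce3c, which rose, Lce3a, its neighbour and subfamily member, Lce1m, which fell, and Lce1h, an Lce1 gene whose group means nearly coincided. Each run gives the 250 bases before the annotated start, 5′ to 3′ on the gene's own strand, from the RefSeq promoter table (assembly GRCm38.p6), which holds 9 of the 10 members and lacks Lce1f. Capitals mark matches to any of 5 motifs on either strand (TATAAA, the TATA box; TGANTCA, an AP-1 site; TGACNNNGC, the core of the antioxidant response element; AACCNGTT, a Grainyhead site; CACCC, a box bound by Krüppel-like factors) and the letters ATAAA close to the start.
Lce3c, chr3:92944236-92944485, plus strand: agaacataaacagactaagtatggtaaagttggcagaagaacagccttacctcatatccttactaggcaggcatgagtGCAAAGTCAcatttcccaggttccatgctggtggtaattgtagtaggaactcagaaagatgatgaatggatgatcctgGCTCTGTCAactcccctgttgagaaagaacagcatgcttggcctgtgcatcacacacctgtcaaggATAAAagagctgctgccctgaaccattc
Lce3a, chr3:92926231-92926480, minus strand: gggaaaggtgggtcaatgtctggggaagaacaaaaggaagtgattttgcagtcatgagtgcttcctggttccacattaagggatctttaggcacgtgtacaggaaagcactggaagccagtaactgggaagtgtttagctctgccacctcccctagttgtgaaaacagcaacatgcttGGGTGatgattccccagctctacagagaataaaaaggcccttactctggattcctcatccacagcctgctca
Lce1m, chr3:93019062-93019311, minus strand: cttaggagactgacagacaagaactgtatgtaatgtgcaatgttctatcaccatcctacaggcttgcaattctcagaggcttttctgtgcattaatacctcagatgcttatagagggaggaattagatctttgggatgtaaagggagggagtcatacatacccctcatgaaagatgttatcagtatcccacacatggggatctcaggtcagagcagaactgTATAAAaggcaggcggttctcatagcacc
Lce1h, chr3:92765066-92765315, minus strand: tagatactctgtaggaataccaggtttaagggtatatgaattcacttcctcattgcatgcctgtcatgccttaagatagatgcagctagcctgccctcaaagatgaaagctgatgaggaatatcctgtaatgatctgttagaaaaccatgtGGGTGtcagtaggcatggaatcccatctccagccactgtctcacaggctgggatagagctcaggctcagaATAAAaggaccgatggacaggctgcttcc

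The letters TGACNNNGC occur at 2 places upstream of Lce3c, both on the reverse strand, and in no other member's window. Of all 32851 promoter windows of this length, 10.2% hold them, and of the 20 Lce windows 5 do (Lce1d, Lce3c, Lce3d, Lce3e and Lce6a), so Lce3b and Lce3f, which also rose, lack them. TATAAA stands in the window of 1 member, Lce1m, and in 12.4% of all windows. CACCC was found upstream of 4 members, Lce1b, Lce1c, Lce1h and Lce3a, and in 52% of all windows. TGANTCA and AACCNGTT were found upstream of no Lce gene, beside 6.75% and 1.79% of all windows. The letters ATAAA, chosen after the sequences had been read and searched on the gene's strand only, begin between 35 and 20 bases before the start in 17 of the 20 Lce windows and in 3.76% of all windows; in Lce1d and Lce1m they are part of TATAAA, so these matches overlap. Lce1a1, Lce3a and Lce6a lack them in that stretch. In the 5 Lce3 genes that have them a G stands before them, and in 9 Lce1 genes an A. Upstream sequences were more alike within than between subfamilies: 12 Lce1 genes other than Lce1m shared a median of 65.2% of aligned bases with each other, the Lce3 genes 58.6%, and Lce1 genes against Lce3 genes 52.4%. Lce1m shared a median of 53.5% with the other Lce1 genes, near its 52.3% with the Lce3 genes. It was not alone in this. Lce1l, which was not called, shared only 50.5% to 57.1% with the Lce1 genes other than Lce1m. A match here is a description of letters and shows no binding.

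Lce3c, of the Lce3 group, read 3.34, 2.44, 3.08 and 2.34 in Control 1 to 4 and 4.17, 3.98, 3.86 and 3.69 in DTG 1 to 4. All DTG arrays were high, including the lowest of them, which exceeded the highest Control array. The log2 fold change was 1.13 (SE 0.23; 95% confidence interval 0.60 to 1.66), a 2.19-fold rise, with an adjusted p of 0.0081, and the exact two-sided permutation test gave 0.0286, the smallest value that 4 arrays against 4 allow.

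Lce3a, the other Lce3 member, read 2.28, 1.12, 1.72 and 0.84 in Control 1 to 4 and 2.51, 2.40, 1.98 and 1.70 in DTG 1 to 4. Control 1 was as high as the DTG arrays, and the groups overlapped. The log2 fold change of 0.66 (SE 0.32; interval -0.07 to 1.39) was not called, with an adjusted p of 0.15 and an exact permutation p of 0.14. The call depended on the setting: without Control 1 the log2 fold change was 0.92 and the adjusted p 0.039, and Lce3a was also called with all arrays on the spike-in scale (1.13, adjusted p 0.0084) and with Xist class in the fit (0.84, adjusted p 0.031). The interval includes the change of Lce3c as well as no change.

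Both non-member Lce3 genes with a probe were called higher. Lce3b read 3.50, 2.69, 3.24 and 2.48 in Control and 4.07, 3.97, 3.80 and 3.62 in DTG, with no overlap between the groups and a log2 fold change of 0.89 (SE 0.23, adjusted p 0.019). Lce3f read 3.01, 1.84, 2.62 and 1.68 in Control and 3.63, 3.44, 3.15 and 2.84 in DTG, with DTG 4 below Control 1. Its log2 fold change was 0.97 (SE 0.31, adjusted p 0.042), but the exact permutation test gave 0.057, and the call was lost without any 1 of Control 2, Control 3, Control 4, DTG 1, DTG 2 or DTG 3, with log2 fold changes from 0.77 to 1.08 and adjusted p from 0.055 to 0.098. Of the 4 Lce3 genes with a probe, 3 were thus called higher, beside 11.1% of all genes tested. Lce3d and Lce3e have no named probe here. The Lce3 genes were measured on the same arrays, so their calls are not independent of each other. The order of the arrays was shared among Lce3 genes: Control 1 and Control 3 read high in all 4 genes, and DTG 1 read highest and DTG 4 lowest among the DTG arrays in all 4.

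Lce1m read 4.15, 3.97, 4.03 and 4.17 in Control 1 to 4 and 3.22, 3.36, 3.29 and 3.84 in DTG 1 to 4. All DTG values were low, with DTG 4 nearest to Control. The log2 fold change was -0.65 (SE 0.14; interval -0.98 to -0.32), a 1.57-fold fall, with an adjusted p of 0.011 and an exact permutation p of 0.0286. It was the only Lce gene called lower among the 16 tested. The call was lost with quantile scaling (-0.47, adjusted p 0.053) and on a scale set by spike-in RNA (-0.18, adjusted p 0.52), with the direction kept.

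The remaining Lce1 members, structural genes of the envelope in normal epidermis, were not called. Lce1h read 4.28, 3.70, 4.18 and 3.81 in Control and 3.94, 4.04, 4.04 and 3.98 in DTG. The DTG arrays lay inside the Control range, and the log2 fold change was 0.01 (SE 0.14; interval -0.31 to 0.32). Lce1g read 3.53, 2.94, 3.40 and 3.02 in Control and 3.29, 3.32, 3.28 and 3.20 in DTG. Its DTG arrays too lay inside the Control range, with a log2 fold change of 0.05 (SE 0.14; interval -0.28 to 0.37).

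Lce1a1 read 3.97, 3.42, 3.76 and 3.54 in Control and 3.60, 3.58, 3.63 and 3.53 in DTG, a log2 fold change of -0.09 (SE 0.13; interval -0.38 to 0.20). Lce1a2 read 5.17, 4.58, 4.80 and 4.70 in Control and 4.57, 4.68, 4.65 and 4.85 in DTG, a change of -0.12 (SE 0.14; interval -0.44 to 0.19). Control 1 was the highest array for both genes, and the groups overlapped. A further probe of Lce1a2 gave -0.20 (SE 0.12, adjusted p 0.22 in a fit over all named probes), also not called.

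Lce1b read 3.68, 3.19, 3.47 and 3.31 in Control and 3.12, 3.21, 3.25 and 3.29 in DTG, a log2 fold change of -0.20 (SE 0.12; interval -0.47 to 0.07). Its probe is printed on 10 spots of each array, and the standard deviation between those spots was 0.025 to 0.048, far below the 0.21 between the Control samples. Lce1c read 4.91, 4.09, 4.56 and 4.36 in Control and 4.38, 4.39, 4.45 and 4.33 in DTG, a change of -0.09 (SE 0.16; interval -0.46 to 0.28). In both genes Control 1 was the highest array, and the second probe of Lce1c gave -0.11 (SE 0.13).

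Lce1f rests on 2 arrays a group, since its spot was marked as an outlier by the scanner software on Control 2, Control 3, DTG 1 and DTG 2 and the fit dropped those values. The remaining arrays read 3.32 and 2.96 in Control 1 and Control 4 and 3.07 and 2.96 in DTG 3 and DTG 4. The log2 fold change was -0.12 (SE 0.19; interval -0.62 to 0.37). With the marked spots kept, the means were 3.08 ± 0.18 in Control and 2.99 ± 0.06 in DTG (SD, n = 4 each; exact permutation p 0.457). The 4 non-member Lce1 genes with a probe, Lce1d, Lce1e, Lce1i and Lce1l, had log2 fold changes between -0.18 and 0.09, and none was called.

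**Figure D2:**
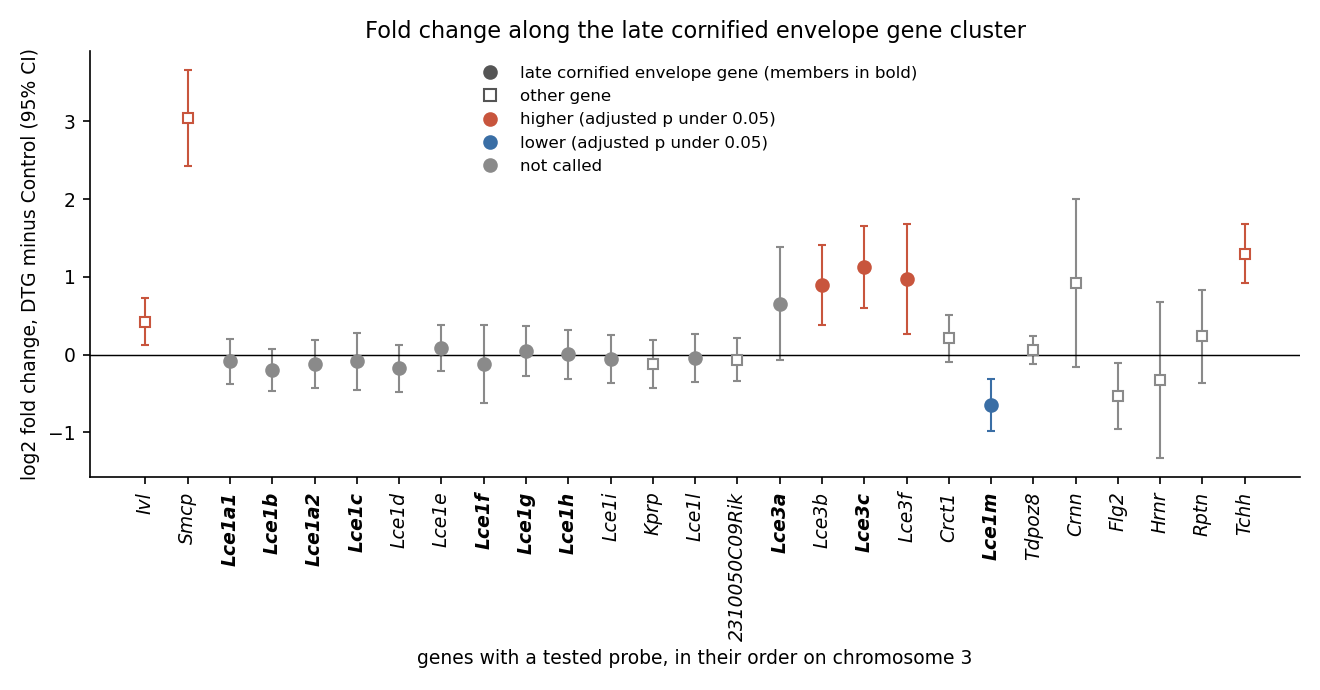
Log2 fold change, DTG minus Control, with 95% confidence intervals, for the genes with a tested probe in their order on chromosome 3; circles are Lce genes, squares other genes, bold names members, red and blue genes called higher and lower. The Lce1 genes from Lce1a1 to Lce1l lie close to 0, the 4 Lce3 genes lie between 0.66 and 1.13, and Lce1m, on the far side of the Lce3 genes, lies at -0.65.

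Gene order along chromosome 3 matches this split. In the RefSeq table the Lce1 genes from Lce1a1 to Lce1l form a run that is interrupted by Kprp (keratinocyte proline-rich protein), the Lce3 genes from Lce3a to Lce3f follow, and Lce1m stands apart from its subfamily, beyond Crct1. Crct1, between Lce3f and Lce1m, was not called (log2 fold change 0.21, SE 0.13, adjusted p 0.26). Of 11 tested neighbours outside the Lce family, 3 were called higher and none lower, beside 11.1% and 21.3% of all genes tested. So few neighbours show no trend of the region. These were Ivl (involucrin, an early envelope protein; log2 fold change 0.42), Smcp (a sperm mitochondrial protein; 3.04) and Tchh (trichohyalin, of the inner root sheath of the hair; 1.30), picked out here because the count was small.

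Changes were also compared between members, gene against gene within each array, which removes any scaling of whole arrays. Lce1f was left out for its missing values, and 36 pairs of the other 9 members were compared by exact permutation tests. The within-array difference between Lce3c and each of the other 8 members was higher on every DTG array than on every Control array. Lce3c changed by 1.78 log2 units more than Lce1m, by 1.33 more than Lce1b, by 1.12 more than Lce1h and by 0.47 more than Lce3a. Each of these differences had p = 0.0286 in the exact test, the smallest possible, and 0.114 after adjustment over the 36 pairs, so none passes 0.05 in this design. Of the 15 pairs among the other Lce1 members without Lce1m, 1 reached the smallest p, Lce1a1 against Lce1g, which differed by 0.14. The change of Lce1m minus that of each other Lce1 member compared ran from -0.70 (Lce1g) to -0.45 (Lce1b). In each of these pairs the groups overlapped, and the exact test gave p from 0.0571 to 0.0857. A fall of Lce1m relative to the other Lce1 members was thus less clear than the rise of Lce3c.

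The Lce1 members varied much more among Control than among DTG samples. For the 6 measured on all arrays, without Lce1m, the standard deviation was 0.21 to 0.34 in Control and 0.04 to 0.12 in DTG. Lce1m showed the opposite, 0.09 in Control and 0.28 in DTG. The Control spread was shared among genes: relative to their Control means, these 6 genes together read 0.32 on Control 1, 0.10 on Control 3, -0.14 on Control 4 and -0.28 on Control 2, but between -0.11 and -0.05 on the DTG arrays. After group means were removed, the correlation over the 8 arrays was 0.75 to 0.99 within these 6 genes, 0.97 between Lce3a and Lce3c, 0.53 to 0.94 between these Lce1 and Lce3 members, and -0.35 to 0.54 between Lce1m and the others. These values describe 8 arrays that share 1 slide and 1 scaling. The 75th percentile subtracted from every gene was 11.69, 12.05, 11.76 and 11.88 in log2 units on Control 1 to 4. The order of these percentiles is the reverse of the order of the 6 genes together. With no scaling the SE of each of the 6 fold changes was lower, for example 0.10 instead of 0.13 for Lce1a1. How much of the shared Control spread comes from the scaling was not tested. Lce genes are close paralogs, the probe sequences were not used here, and whether a probe also binds the RNA of a related Lce gene was not tested.

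Control 1 and Control 3, the arrays on which the Lce genes read high, also differ from the other Control arrays in sex-linked genes. The label of every sample says male, yet Xist, a transcript of the inactive X chromosome, read -8.56 to -6.89 on Control 1, Control 3 and DTG 2 and 0.08 to 0.73 on the other 5 arrays, and the Y-linked Eif2s3y read 1.22 to 1.66 on the first 3 and -7.79 to -6.18 on the rest. Within Control, the 2 low-Xist arrays exceeded the 2 high-Xist arrays by 0.32 to 0.51 for the 6 Lce1 members, by 0.82 for Lce3c and by 1.02 for Lce3a, but by 0.02 for Lce1m. Within DTG the single low-Xist array differed from the other 3 by -0.09 to 0.33 over the members measured. Within the 5 high-Xist arrays Lce3c was higher (1.52, adjusted p 0.011), and the call of Lce1m was lost (-0.62, adjusted p 0.12). Within the 3 low-Xist arrays, of which 1 is DTG, Lce3c read 0.78 (adjusted p 0.11) and Lce1m -0.72 (adjusted p 0.10), and no member was called, beside 168 genes called higher and 81 lower of 17642. Control 1 and Control 3 also had the lowest 75th percentiles of the Control arrays, 11.69 and 11.76 in log2 units. The scaling shifts all genes of an array by the same amount, and the gaps above ran from 0.02 for Lce1m to 1.02 for Lce3a. How much of each gap goes with Xist class and how much with the scaling was not tested. The part of sex in these results beyond these values was not tested.

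**Figure D3:**
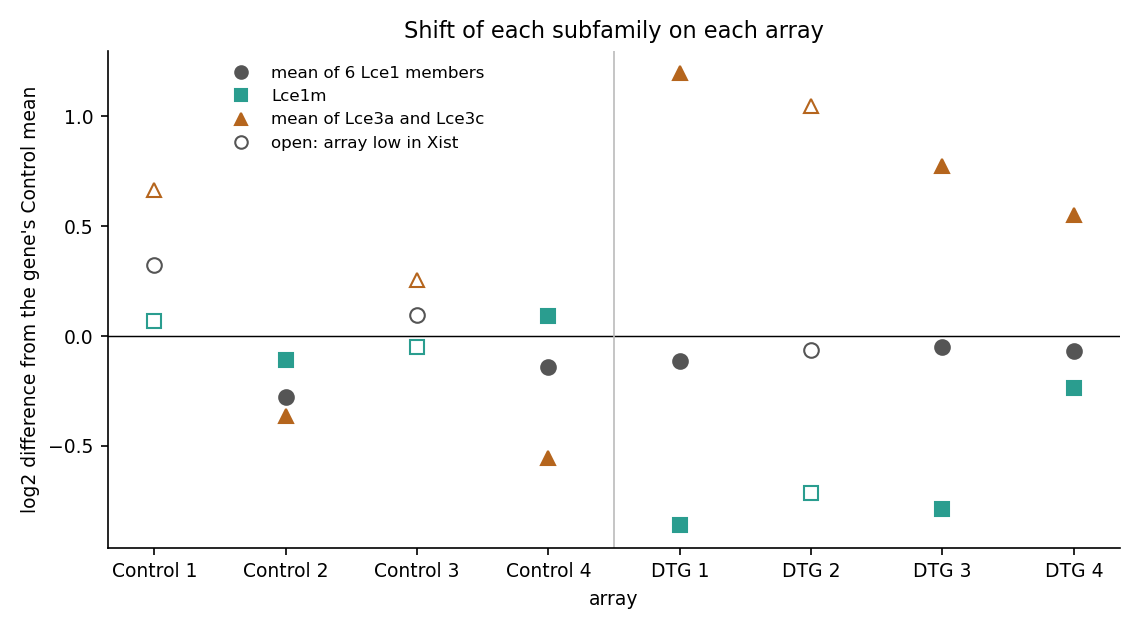
Log2 difference of each array from the gene's Control mean, averaged over 6 Lce1 members (circles), for Lce1m (squares) and averaged over Lce3a and Lce3c (triangles); open symbols are the arrays low in Xist. The Lce1 circles spread from -0.28 to 0.32 in Control and stay between -0.11 and -0.05 in DTG, the Lce3 triangles lie at 0.55 to 1.20 in DTG, and the Lce1m squares at -0.86 to -0.23.

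The 5 genes outside the family whose levels over the 8 arrays were most like the mean of the members, out of 16431 considered, were Tmem125 (Pearson r = 0.992; 0.992 after group means were removed), Tmem79 (0.988; 0.992), Llgl2 (0.982; 0.981), Stfa2l1 (0.979; 0.980) and Tab2 (0.976; 0.976). Tmem79 encodes mattrin, a membrane protein of granular keratinocytes known from the matted mouse, and Llgl2 a cell polarity protein. None of the 5 was called in DTG against Control. Tmem79, for instance, read 2.30, 1.73, 2.12 and 1.83 in Control and 2.03, 2.09, 2.03 and 1.97 in DTG, the same wide Control and narrow DTG spread as the Lce1 members. Its levels carry the same scaling of each array, and the part of that scaling in the likeness was not tested.

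The envelope genes outside the Lce family were split as well. Of 25 listed genes, 24 have a named probe (Flg does not), 23 passed the filter (Sprr3 did not), and of these 6 rose, 4 fell and 13 were not called, with a median log2 fold change of 0.15. Over all genes tested, 11.1% were called higher and 21.3% lower. Of the 5 tested Sprr genes on this list, small crosslinking partners of the envelope, 4 rose, and Sprr2d was not called (0.15, SE 0.22, adjusted p 0.62). Sprr genes outside the list were not counted. Sprr2h read 3.39, 2.62, 3.08 and 2.44 in Control and 4.06, 4.07, 3.95 and 3.87 in DTG, a log2 fold change of 1.10 (SE 0.20, adjusted p 0.0046). Sprr1a rose by 0.75 (SE 0.14, adjusted p 0.0055) and Sprr4 by 0.65 (SE 0.11, adjusted p 0.0040), in both with every DTG array above every Control array. Tgm5, a transglutaminase that crosslinks envelope proteins, read 2.79, 2.50, 2.63 and 2.33 in Control and 0.58, 1.01, 0.97 and 1.50 in DTG, a fall of 2.92-fold (log2 fold change -1.55, SE 0.19, adjusted p 0.00095). Sprr1b, Cnfn and Ivl also rose and Evpl, Ppl and Scel also fell, by less than 1 log2 unit each. Lor, the gene of loricrin, was not called (-0.36, SE 0.12, adjusted p 0.051).

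**Figure D4:**
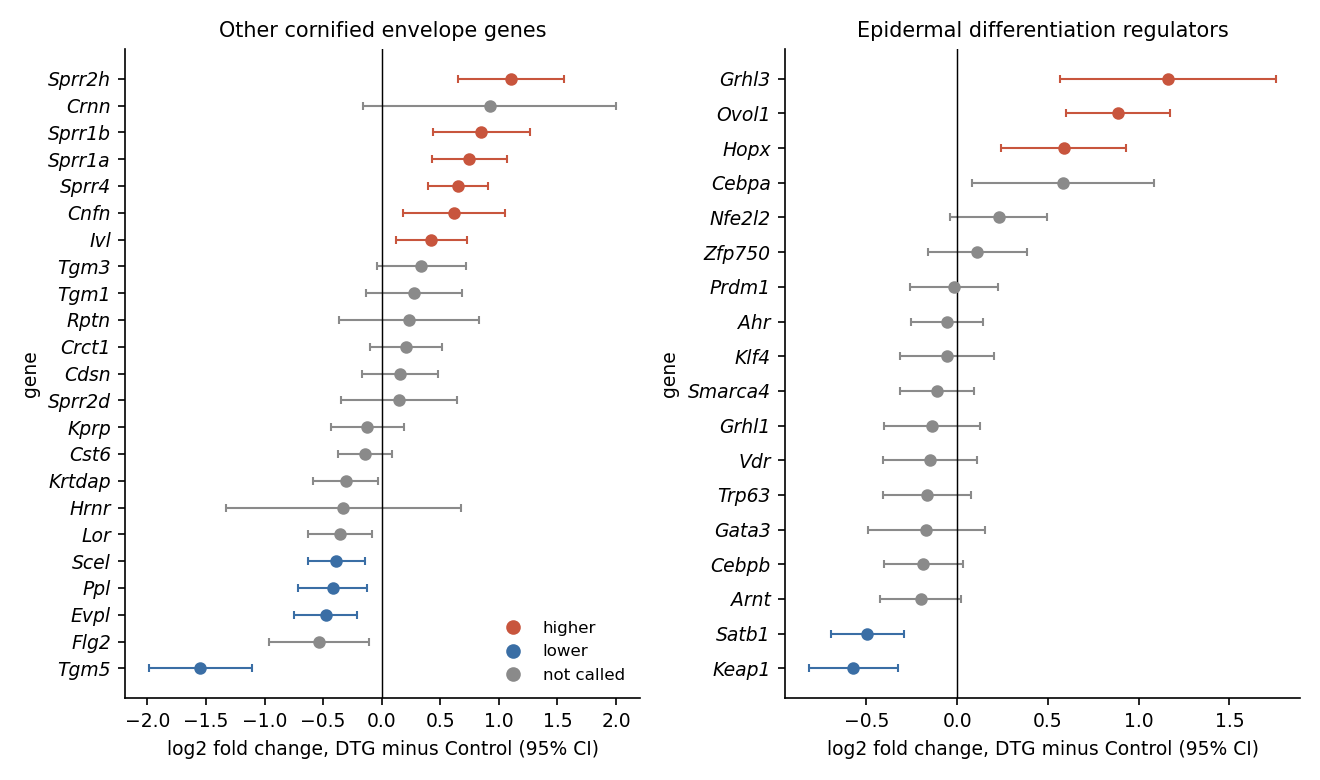
Log2 fold change, DTG minus Control, with 95% confidence intervals, for 23 other cornified envelope genes (left) and 18 regulators of epidermal differentiation (right); red and blue mark genes called higher and lower, grey those not called. Sprr2h, at 1.10, tops the envelope genes and Tgm5, at -1.55, lies lowest, while Grhl3, at 1.16, and Ovol1, at 0.88, top the regulators.

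Of 18 regulators of epidermal differentiation, 3 rose, 2 fell and 13 were not called, with a median of -0.08. Among all genes tested, 11.1% were called higher, 21.3% lower and 32.4% in either direction. A difference of the 18 genes from these shares was not tested. Grhl3, a Grainyhead-like factor needed for barrier formation, read 1.17, 0.01, 1.10 and 0.55 in Control and 1.94, 2.19, 1.56 and 1.79 in DTG (log2 fold change 1.16, SE 0.26, adjusted p 0.012). Ovol1, a zinc finger repressor of differentiating epidermis, rose by 0.88 (SE 0.13, adjusted p 0.0017), and Hopx, a homeodomain-only protein, by 0.59 (SE 0.15, adjusted p 0.019). Satb1, a chromatin organiser of the epidermal differentiation complex, had a log2 fold change of -0.49 (SE 0.09, adjusted p 0.0046), and Keap1, the inhibitor of the antioxidant factor Nrf2, one of -0.57 (SE 0.11, adjusted p 0.0056). Both calls were lost on the spike-in scale, at -0.02 for Satb1 and -0.10 for Keap1. Nfe2l2, the gene of Nrf2 itself, was not called (0.23, SE 0.12), and neither was Klf4, a barrier factor (-0.06, SE 0.11).

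Marker genes of the cell layers and of other cell types are given beside these results, and their counts read against the 11.1% of all genes called higher and the 21.3% called lower. Of the markers tested, 4 of 7 basal keratinocyte genes (Krt5, Krt15, Itgb4 and Col17a1) and 3 of 7 spinous genes (Krt1, Krt10 and Dsg1a) fell, and of 9 granular genes 1 rose (Ivl) and none fell. The summed linear level of the granular markers, in multiples of each array's 75th percentile, was 74.3 to 106 in Control and 80.2 to 90.1 in DTG, that of the spinous markers 90.6 to 121 and 75.7 to 89.1, and that of the basal markers 108 to 140 and 78.5 to 102. Krt15 had no value on DTG 2, so the basal sum of 78.5, on that array, leaves it out, and the lower end of the DTG range is too low. Of the other types, 5 of 6 adipocyte genes (all but Lep; summed 43.6 to 67.6 and 45.7 to 49.8), 3 of 5 T cell genes (Cd3d, Cd3e and Cd3g; 20.2 to 22.5 and 15.8 to 20.4), 2 of 6 fibroblast genes (Dcn and Lum; 124 to 176 and 107 to 130) and 1 of 6 muscle genes (Tnnt3; 109 to 120 and 92.5 to 100.3) fell. Adipoq had no value on Control 4, so the adipocyte sum of 43.6, on that array, leaves it out. The lower end of the Control range is therefore too low, and its overlap with DTG cannot be read. Lep went the other way and was not called (log2 fold change 1.32, SE 0.54, adjusted p 0.093). Of 8 hair follicle genes Tchh rose and Lhx2 fell, and no gene of 4 macrophage or 5 endothelial markers was called. Flg and Cd68 have no named probe here, and every other listed marker was well above background on some arrays. Their part in the Lce results was not tested.

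The Msi1 probe that stands for the gene read -5.92 to -1.48 in Control and 3.85 to 4.16 on the 3 DTG arrays where it was not marked as an outlier (log2 fold change 6.81, SE 1.02, adjusted p 0.0029), whereas a second, dim Msi1 probe did not differ in the fit over all named probes (-0.03, adjusted p 0.90). The probes of Msi2, its paralog, disagreed: the one that stands for the gene read 0.55 lower in log2 units (change -0.55, adjusted p 0.0024), and a dim one, at -6.02 to -5.81 in Control and -5.10 to -4.62 in DTG, read higher (1.09, adjusted p 0.00093 in the fit over all named probes). All arrays lay on 1 slide, with Control in row 1 and DTG in row 2, so that row and group cannot be told apart. Control arrays had 79.5 to 85.1% of spots well above background and DTG arrays 68.8 to 71.6%. Before scaling, negative control spots read 2.40 to 3.29 in log2 units in Control and 4.27 to 4.69 in DTG (exact permutation p 0.0286). The part of this higher floor in the change of dim probes, such as the dim Msi2 probe, was not tested. Probes of spike-in control RNA read 0.51 ± 0.27 above the 75th percentile in Control and 0.04 ± 0.06 in DTG (SD, n = 4; exact permutation p 0.0286). On a scale set by the spike-ins, the median of all genes moved from -0.15 to 0.33, and 30.5% of all genes were called higher and 2.32% lower. Of the members, 5 were then called higher (Lce1a1, Lce1g, Lce1h, Lce3a and Lce3c) and none lower, with Lce1m at -0.18. Lce3c kept its direction and call on every scale tried, from 1.10 with median scaling to 1.60 with spike-ins.

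**Figure D5:**
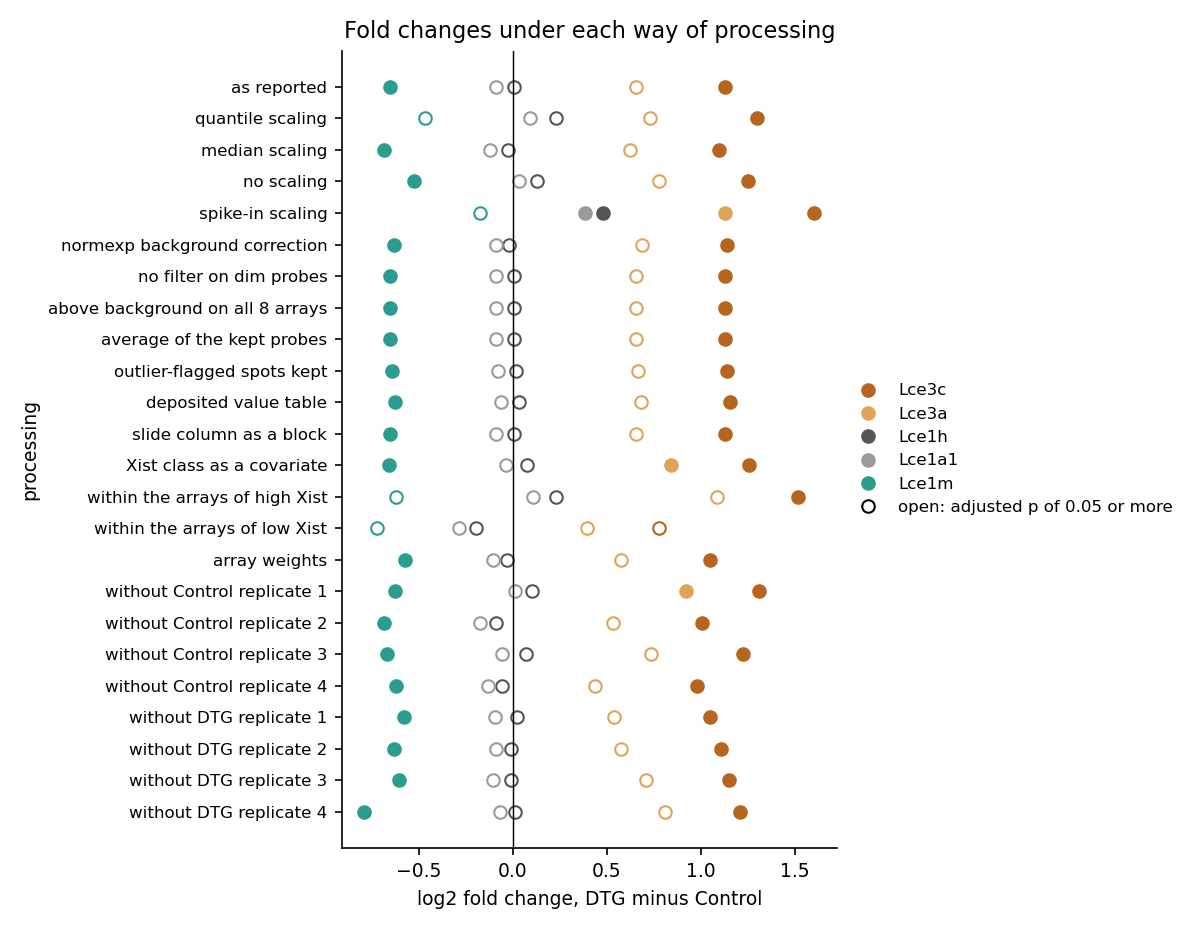
Log2 fold change, DTG minus Control, of 5 members (colours) under each way of processing (rows); filled points had an adjusted p under 0.05. Lce3c stays between 0.78 and 1.60, Lce1m between -0.79 and -0.18, Lce1a1 and Lce1h fall on either side of 0, and Lce3a is filled with spike-in scaling, with Xist class as a covariate and without Control 1.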

How the data were processed

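Total RNA of whole mouse skin, 4 Control and 4 DTG samples, was amplified, labelled with Cy3 and hybridised to one-colour Agilent arrays, per the labels' protocols. The authors deposited each array's scanner output as linear spot intensity from Agilent Feature Extraction (11.5.1.1 per the file headers, while the submitters' processing notes give 10.7). The headers name build mm9. The deposited series table holds intensities as well, 99.6% of them within a relative tolerance of 0.001 of the processed signal, and served as an alternative.

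Accessions were matched to a RefSeq table (GRCm38.p6), which named 26762 of 55681 probes. The log2 of the processed signal minus each array's 75th percentile was taken over non-control probes, without outlier-flagged spots (0.55% of probe values). Probes well above background on at least 3 of 4 arrays of a group were kept, and the brightest stood for the gene. Fits used limma 3.58.1 in R 4.3.3 (two-sided, Benjamini-Hochberg over 17766 genes). The script was tested on simulated data. Named genes were the members, the 4 genes of smallest p in each non-marker list, Msi1, Msi2 and the 5 most alike genes; other genes named were chosen after their values were seen. The members and lists were chosen with earlier results of these data known. Replicate numbers follow deposit order and pair no samples. The labels do not say whether samples of a group came from separate animals, although sex-linked genes differ within both groups. The p-values cover the spread among these samples alone, part of which may be technical. The number of arrays limits the precision.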

Additional observations from a re-analysis of the deposited data

How the results depend on the processing

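As reported, 1 member was called higher and 1 lower. The count called higher was 5 with spike-in scaling (30.5% of all genes), 2 with Xist class as a covariate (11.7%) and 0 within the low-Xist arrays (0.952%; 1 DTG array, so a lost call there says little), and 1 to 2 when 1 array was left out (2 without Control 1). The count called lower was 0 with quantile scaling, with spike-in scaling and within either Xist class. Lce1m lost its call with quantile scaling (adjusted p 0.053). Changes near 0 turned sign as follows. With quantile scaling Lce1a1 was 0.092, Lce1a2 0.10 and Lce1c 0.17. With no scaling Lce1a1 was 0.035, Lce1a2 0.0018, Lce1c 0.035 and Lce1f 0.036. With spike-in scaling Lce1a1 was 0.39, Lce1a2 0.35, Lce1b 0.27, Lce1c 0.38, Lce1f 0.33 and Lce1d 0.29. Within the high-Xist arrays Lce1a1 was 0.11, Lce1a2 0.055, Lce1c 0.16, Lce1f 0.059 and Lce1d 0.0033, and within the low-Xist arrays Lce1g was -0.15, Lce1h -0.19 and Lce1e -0.058. Lce1f was 0.0032 with slide column as a block and 0.059 with Xist class. Lce1h was -0.026 with median scaling, -0.019 with normexp and -0.028 with array weights. Leaving out 1 array gave -0.17 to 0.011 for Lce1a1, -0.22 to 0.054 for Lce1c, -0.30 to 0.059 for Lce1f, -0.046 to 0.15 for Lce1g and -0.091 to 0.10 for Lce1h. The cause was not tested beyond what each alternative changes. Other background corrections, filters, probe rules and the deposited table kept both member calls. No paired analysis was possible because the labels give no replicate numbers; slide column as a block, a fit by position, kept both member calls. Satb1 lost its call with no scaling (adjusted p 0.088) and Keap1 within the high-Xist arrays (adjusted p 0.071). Within the low-Xist arrays each Lce gene called as reported, and each of the 8 named envelope genes and regulators, kept its direction, for example Tgm5 at -1.70, Ovol1 at 0.85 and Lce3b at 0.60, none of them called. The median SE over all genes was 0.14.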
